A study of Mus musculus with 8 samples.

Results

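The genes described here are 10 components of the NRF2 and glutathione antioxidant system: Nfe2l2, Keap1, Nqo1, Gclc, Gclm, Slc7a11, Txnrd1, Srxn1, Prdx1 and G6pdx. They were taken by gene symbol from a table of 42649 genes. All 10 were found, and all 10 had enough reads to enter the test. RNA was sequenced from macrophages sorted from liver metastases of 8 C57BL/6 mice, 4 on a high-fat diet (HFD), in which fat supplies 60% of the energy, and 4 on a control diet (CD), in which it supplies 10%. After 6 weeks of feeding, both groups received MC38 colon carcinoma cells, a line of C57BL/6 origin, by injection into the spleen, from where the cells seed the liver, and metastases were taken on day 19. Cells positive for CD45, CD11b and F4/80 were sorted, which takes in other myeloid cells that carry these proteins. The labels give no genetic difference between the groups, so diet is the single factor compared, with 4 mice and 4 libraries per diet.

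NRF2, the protein made from Nfe2l2, is a transcription factor that binds antioxidant response elements (ARE) and switches on genes that neutralise oxidants and electrophiles. KEAP1 holds NRF2 in the cytosol and delivers it for degradation, and reactive molecules modify cysteines of KEAP1 and release NRF2. Much of this control therefore acts on the protein, and the level of Nfe2l2 RNA need not follow NRF2 activity. In macrophages the system limits damage from the oxidants that the cells themselves produce and keeps the cystine, glutathione and thioredoxin cycles supplied.

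With respect to diet, none of the 10 genes passed the test, which was edgeR's quasi-likelihood test with Benjamini-Hochberg adjustment over 17367 genes and a threshold of 0.05. Over all genes 1 passed, or 0.00576%. DESeq2 called 1 of the 10, Slc7a11, and 1228 of all 42649 genes. The 42649 include genes of low count that edgeR's filter removed, so the share is not like for like with the 10. Slc7a11 had the smallest p of the 10, with an unadjusted p of 0.0207 and an adjusted p of 0.313 in edgeR. That was 1 of 10 genes at an unadjusted p under 0.05, against 12.9% of all genes tested. The fold change was above 0 in 3 of the 10 and below 0 in 7, with a median log2 fold change of -0.24, while the median of all genes was 0.01. The values of HFD and CD libraries overlapped for each of the 10. Over all genes, 3.57% had every HFD library above every CD library and 4.80% had every HFD library below every CD library. Scaled by library size alone, the fold change was above 0 in 7 of the 10 and below 0 in 3, and the median of all genes moved to 0.42.

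Libraries held 37180157 to 55717378 counts. Macrophage markers were present throughout, and Adgre1, which encodes F4/80, was at 198 to 682 CPM (read counts scaled to library size with edgeR's TMM factors) in HFD libraries and 93.4 to 231 CPM in CD libraries. Transcripts of CD45 and CD11b, Ptprc and Itgam, were at 40.3 CPM or more in every library. CD replicates 3 and 4 stood apart. Counts were found for 34495 and 33449 genes there, against 21571 to 24556 in the other 6 libraries, and the sum of 12 neutrophil markers was 105169 and 107153 CPM, against 352 to 6891 CPM elsewhere. The mitochondrial share of the reads counted was 9.15% in CD replicate 3 and 10.7% in CD replicate 4, and 2.58% to 7.68% in the other libraries. HFD replicate 1 stood apart in another way. Its TMM factor was 2.02, against 0.69 to 1.21 elsewhere, and its 100 most abundant genes held 32.5% of the counts, against 52.4% to 70.5%. A TMM factor of that size lowers every CPM value of HFD replicate 1 relative to plain library size scaling. No label gives a cause for either pattern, and for the 10 genes the results that rest on these libraries are given with and without them.

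The 10 genes covered a wide range of levels per transcript length, given as FPKM (fragments per kilobase of transcript, scaled to the depth of the library), which the authors computed. Prdx1 was highest, with a median of 172.6 FPKM over the 8 libraries. Nfe2l2 followed at 25.9, Srxn1 at 14.2, G6pdx at 9.0 and Txnrd1 at 5.58 FPKM. Keap1 had a median of 2.49, Gclc 2.12, Slc7a11 2.03 and Gclm 1.84 FPKM, and Nqo1 was lowest at 0.468 FPKM. The top and bottom of this order held in every library, since Prdx1 lay above Nfe2l2 in 8 of 8 and Gclm above Nqo1 in 8 of 8. Nfe2l2 exceeded Srxn1 in 6 of 8 libraries, and so did Srxn1 over G6pdx. G6pdx exceeded Txnrd1 in 7 of 8 libraries and Txnrd1 exceeded Keap1 in 7 of 8. Among Keap1, Gclc, Slc7a11 and Gclm the order was not settled, with each ahead of the next in 4, 4 and 5 of 8 libraries.

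**Figure D1:**
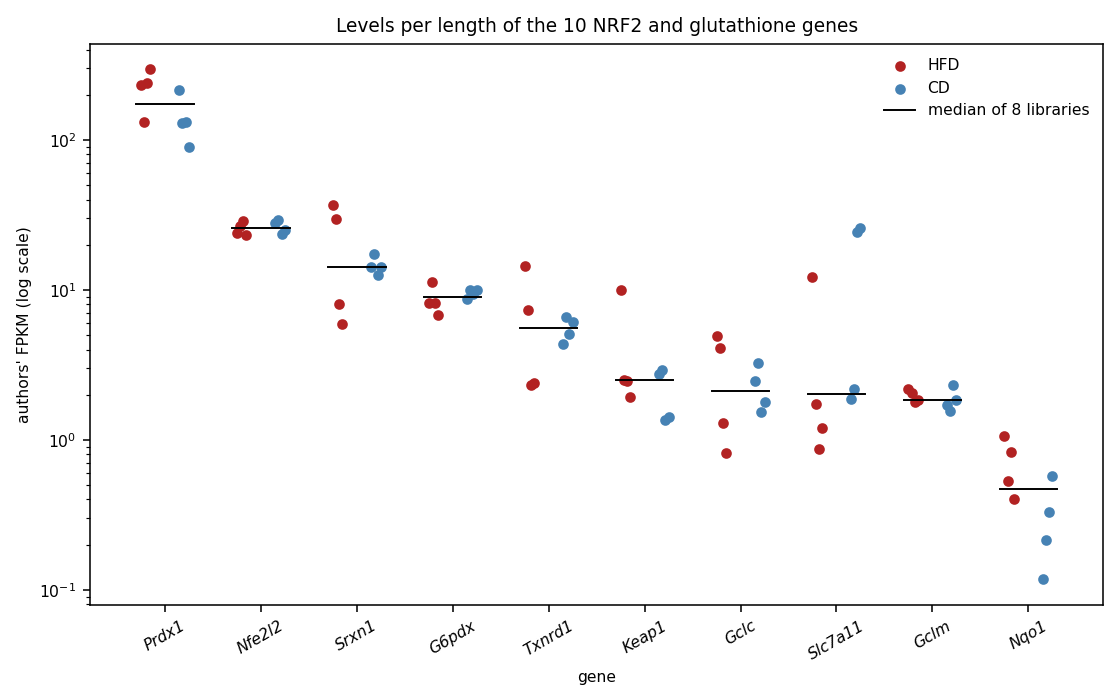
FPKM of each of the 10 genes (log scale) in 4 HFD libraries (left, red) and 4 CD libraries (right, blue), with the median of 8 libraries as a line and genes ordered by it. Prdx1 lies far above the others at a median of 172.6 FPKM, Nfe2l2 is the most even, and Slc7a11 reaches 24.3 and 25.7 FPKM in CD replicates 3 and 4 against a median of 2.03 FPKM.

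The promoters of 9 of the 10 genes were found in the RefSeq promoter table for GRCm38.p6, which spans 250 bases before to 50 bases after each transcript start. Gclc was the one not matched. The core of the antioxidant response element, TGACNNNGC on either strand, was found for 6 of the 9 genes, against 14.0% of the 27025 genes in the table and 12.4% of its 32851 promoters. Among the other genes of the pathway lists described further on, it was found for 17 of 103. The 6 matches are shown because they have the letters of the core of the element through which NRF2 acts. In each, 10 bases on each side are in lower case and the core is in capitals. Each is read on the gene's own strand, so that a core lying on the opposite strand appears as GCNNNGTCA.
Nfe2l2: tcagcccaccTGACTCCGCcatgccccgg
Gclm: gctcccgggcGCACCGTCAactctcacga
Txnrd1: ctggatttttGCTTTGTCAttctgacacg
Srxn1: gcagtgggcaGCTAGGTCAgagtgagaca
Prdx1: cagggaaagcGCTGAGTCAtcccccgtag
G6pdx: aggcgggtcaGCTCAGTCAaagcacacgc
The windows lie on GRCm38.p6 at chr2:75704885-75704913 (minus strand) for Nfe2l2, chr3:122245413-122245441 (plus) for Gclm and chr10:82859104-82859132 (plus) for Txnrd1. They lie at chr2:152105542-152105570 (plus) for Srxn1, chr4:116685456-116685484 (plus) for Prdx1 and chrX:74428919-74428947 (minus) for G6pdx. The cores of Prdx1 and Gclm start 133 and 134 bases before the transcript start. Txnrd1 has 3 promoters in the table, and the match is in the second. With the core required to be followed by A, which makes the element longer, 1 of the 9 genes matched, Txnrd1. A match is a description of letters and not a shown binding site.

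Slc7a11 had no such core in this window. It held instead TGATGNAA, the letters of an element that the stress factor ATF4 can bind, which was searched for after the values had been seen. It was found for 1 of the 9 genes, against 4.51% of all genes in the table, and matched at 2 places, on opposite strands, 66 to 59 and 47 to 40 bases before the start. The whole promoter at chr3:50443564-50443863 (minus strand, 44.7% GC) is shown because Slc7a11 varied most among the 10 genes, with both matches in capitals.
Slc7a11: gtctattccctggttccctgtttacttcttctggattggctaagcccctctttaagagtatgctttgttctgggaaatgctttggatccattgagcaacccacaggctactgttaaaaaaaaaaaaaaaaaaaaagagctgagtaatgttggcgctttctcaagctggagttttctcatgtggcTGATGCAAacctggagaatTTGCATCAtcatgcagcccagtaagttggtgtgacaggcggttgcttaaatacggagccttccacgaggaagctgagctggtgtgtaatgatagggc
Another pattern, TGANTCAGC, which AP-1 factors can also bind and which overlaps the antioxidant core where both are TGACTCAGC, was likewise chosen after the values had been seen. It was found for Srxn1 and Prdx1, against 1.37% of all genes. In Prdx1 it is the same 9 bases as the antioxidant core, and in Srxn1 it lies 45 to 37 bases before the start. The antioxidant core was searched for with TGAC only, so the Srxn1 match, TGAGTCAGC, was not counted with it. Which factor binds either match in Srxn1 was not tested.
Srxn1: aaattcacccTGAGTCAGCggccgggcgc

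The regulators come first. Nfe2l2 (chr2:75675513-75704641) was at 52.3, 99.9, 135 and 141 CPM in HFD libraries and at 120.1, 119, 145 and 147 CPM in CD libraries. HFD replicate 1 was lowest and the other 7 libraries lay between 99.9 and 147 CPM. Its log2 fold change was -0.31 ± 0.34 (SE), with an adjusted p of 0.710 in edgeR. Without HFD replicate 1 it was -0.08, and without CD replicates 3 and 4 it was -0.17. On the FPKM scale Nfe2l2 ran from 23.1 to 28.6 in HFD libraries and from 23.6 to 29.4 in CD libraries. The highest of all 8 was 1.27 times the lowest, the smallest such ratio of the 10 genes, and HFD replicate 1, at 23.9 FPKM, no longer stood apart.

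Keap1 (chr9:21229730-21239361), which encodes the inhibitor of NRF2, was at 27.0, 11.7, 14.4 and 14.6 CPM in HFD libraries and at 14.6, 14.6, 10.4 and 10.4 CPM in CD libraries. HFD replicate 1 was highest and CD replicates 3 and 4 were lowest. For Keap1 the log2 fold change was 0.43 ± 0.31 (SE, adjusted p = 0.551 in edgeR). It was 0.12 without HFD replicate 1, 0.21 without CD replicates 3 and 4, and -0.11 without all of these libraries. The CPM values of Nfe2l2 and Keap1 thus put HFD replicate 1 at opposite ends.

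Slc7a11 (chr3:49892526-50443614) encodes xCT, the light chain of the antiporter that brings in cystine, the source of cysteine for glutathione. It was at 98.0, 23.7, 15.0 and 26.7 CPM in HFD libraries and at 29.4, 32.4, 547 and 552 CPM in CD libraries. CD replicates 3 and 4 were high, HFD replicate 1 was intermediate, and the other 5 libraries lay within 15.0 to 32.4 CPM. The mean was 40.9 ± 38.4 CPM in HFD libraries and 290.2 ± 299 CPM in CD libraries (SD, n = 4 each). The highest library held 36.7 times the lowest, the widest range of the 10, on counts of 633 to 16487. In edgeR the log2 fold change was -2.83 ± 1.03 (SE, adjusted p = 0.313).

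The fold change of Slc7a11 turned on the 2 CD libraries. It was 0.41 without CD replicates 3 and 4 (adjusted p = 0.987 in edgeR), -0.50 without these and HFD replicate 1, 0.99 within replicate numbers 1 and 2 and -4.64 within replicate numbers 3 and 4 (adjusted p = 8.6e-04 in edgeR). It passed when genes of low count were kept (-2.61, adjusted p = 0.0381 in edgeR) and in DESeq2 (-2.87, adjusted p = 0.0325). The same 2 libraries had the high neutrophil marker sums and mitochondrial shares, and the sum of 6 classical monocyte markers was 24060 and 20492 CPM there, against 773 to 4675 CPM elsewhere. All 12 neutrophil markers had counts in every library, and 9 of the 12 had an unadjusted p under 0.05 on the lower side. The neutrophil sum was 352, 2015, 3876 and 6891 CPM in HFD libraries and 1593, 1317, 105169 and 107153 CPM in CD libraries, so HFD replicate 1, the next highest library for Slc7a11, had the lowest neutrophil sum of the 8. The part of other myeloid cells in the Slc7a11 values was not tested, and in bulk RNA a different number of cells of a type and a different amount of RNA per cell cannot be told apart.

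**Figure D2:**
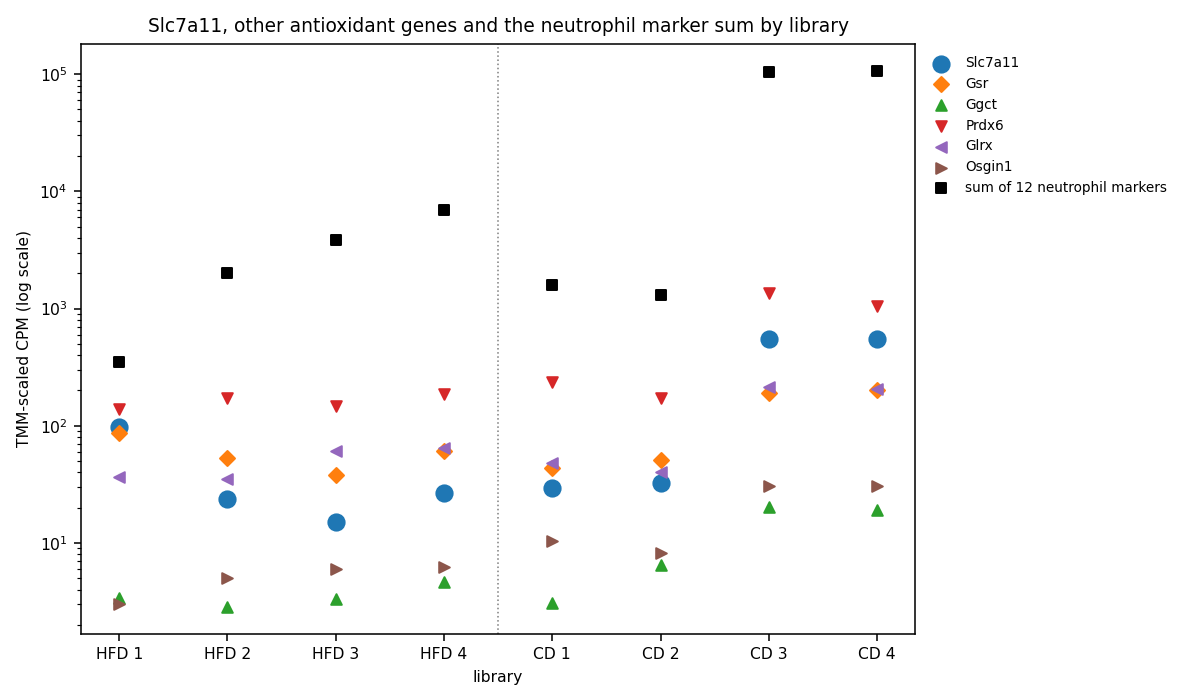
CPM (log scale) of Slc7a11, Gsr, Ggct, Prdx6, Glrx and Osgin1 and the summed CPM of 12 neutrophil markers in each of 8 libraries, HFD left and CD right. In HFD replicate 1 Slc7a11 is at 98.0 CPM with the lowest marker sum. All are highest in CD replicates 3 and 4, where Slc7a11 is at 547 and 552 CPM and the marker sum at 105169 and 107153 CPM. The genes beside Slc7a11 are ones that have this pattern, and Slc3a2 and Prdx1, which lack it, are not shown.

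The 5 genes whose pattern over the 8 libraries was closest to that of Slc7a11, by root mean square difference of centred log2 CPM among 5384 genes with a mean of at least 10 CPM, were Lrg1, Isg20, Ifit1, Chil1 and Dgat2. Their differences ran from 0.49 for Lrg1 to 0.60 for Dgat2. Lrg1 was at 23.6 to 51.1 CPM in HFD libraries and at 28.8, 32.3, 709 and 519.6 CPM in CD libraries. Chil1, a chitinase-like protein gene, was at 3.30 to 5.69 CPM in HFD libraries and at 2.90, 3.87, 105 and 93.0 CPM in CD libraries. All 5 were highest in CD replicates 3 and 4, which follows from their choice by likeness to Slc7a11 and is no separate result.

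The partner chain of the antiporter did not show this pattern. Slc3a2, the heavy chain that carries xCT and several other amino acid transporters to the membrane, was at 332, 393, 369 and 561 CPM in HFD libraries and at 454, 389.6, 588 and 432 CPM in CD libraries. The log2 fold change of Slc3a2 was -0.17 ± 0.32 (SE, adjusted p = 0.851 in edgeR), and 0.20 scaled by library size.

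Gclc and Gclm encode the catalytic and the modifier subunit of glutamate-cysteine ligase, which catalyses the first and rate-limiting step of glutathione synthesis. Gclc (chr9:77754535-77794485) was at 10.7, 15.2, 6.05 and 4.99 CPM in HFD libraries and at 10.5, 13.1, 9.36 and 10.3 CPM in CD libraries. HFD replicates 3 and 4 were lowest and HFD replicate 2 highest, so the HFD libraries lay on both sides of the CD libraries. For Gclc the log2 fold change was -0.23 ± 0.35 (SE, adjusted p = 0.811 in edgeR), and 0.30 scaled by library size. With single libraries left out it ran from -0.55 without HFD replicate 2 to 0.0080 without HFD replicate 4. Replicate numbers 1 and 2 alone gave 0.14, and 3 and 4 alone gave -0.75 (adjusted p = 0.0589 in edgeR).

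Gclm (chr3:122245557-122270732) was at 7.94, 12.8, 13.9 and 18.7 CPM in HFD libraries and at 12.1, 10.4, 23.6 and 17.8 CPM in CD libraries. Its log2 fold change was -0.26 ± 0.34 (SE, adjusted p = 0.764 in edgeR), and 0.10 scaled by library size. It was -0.0018 without CD replicate 3, -0.07 without HFD replicate 1 and -0.43 without HFD replicate 4. The FPKM of Gclm were 1.78 to 2.18 in HFD libraries and 1.55 to 2.31 in CD libraries, and the highest of all 8 was 1.49 times the lowest. Gclm overlaps 2 other annotated genes, Gm17494 on the opposite strand and Gm6061 on the same strand. The counts of these 2 genes over the 8 libraries ranged from 57 to 91860. Without strand in the protocol, reads of such genes and of Gclm cannot be told apart where they overlap. Keap1, G6pdx, Txnrd1, Slc7a11 and Nfe2l2 also overlap other annotated genes, each with at most 938 counts over the 8 libraries.

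Gss, which completes glutathione, was at 6.46 to 12.1 CPM in HFD libraries and at 7.60 to 11.7 CPM in CD libraries (adjusted p = 0.798 in edgeR). Gsr, which reduces oxidised glutathione with NADPH, was at 86.4, 53.2, 38.3 and 60.9 CPM in HFD libraries and at 43.6, 50.7, 190.5 and 201 CPM in CD libraries. As with Slc7a11, CD replicates 3 and 4 were highest and HFD replicate 1 next. The log2 fold change of Gsr was -1.02 ± 0.53 (SE, adjusted p = 0.440 in edgeR), and 0.34 without CD replicates 3 and 4.

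In the thioredoxin cycle, Txnrd1 encodes the cytosolic reductase that recharges thioredoxin. Txnrd1 (chr10:82833951-82897712) was at 59.4, 50.9, 20.6 and 27.4 CPM in HFD libraries and at 34.8, 49.8, 58.5 and 66.5 CPM in CD libraries. HFD replicates 3 and 4 were the lowest 2 libraries, and HFD replicates 1 and 2 lay among the CD libraries. For Txnrd1 the log2 fold change was -0.40 ± 0.37 (SE, adjusted p = 0.658 in edgeR), and 0.27 scaled by library size. It was -0.16 without HFD replicate 3, -0.22 without HFD replicate 4, -0.26 without CD replicate 4 and -0.65 without HFD replicate 1. Without CD replicates 3 and 4 together it was -0.096. Within replicate numbers 1 and 2 it was 0.39, and within 3 and 4 it was -1.30 (adjusted p = 0.00964 in edgeR).

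Srxn1 encodes sulfiredoxin, which repairs over-oxidised peroxiredoxins. Srxn1 (chr2:152105516-152109322) was at 59.6, 82.7, 28.3 and 26.7 CPM in HFD libraries and at 45.4, 52.4, 57.3 and 61.3 CPM in CD libraries. HFD replicates 3 and 4 lay below every CD library, as for Gclc and Txnrd1, and HFD replicate 2 lay above every CD library, as for Gclc. For Srxn1 the log2 fold change was -0.13 ± 0.38 (SE, adjusted p = 0.908 in edgeR), and 0.47 scaled by library size. With single libraries left out it ran from -0.47 without HFD replicate 2 to 0.11 without HFD replicate 4. Replicate numbers 1 and 2 alone gave 0.54, and 3 and 4 alone gave -1.02 (adjusted p = 0.0124 in edgeR).

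Prdx1 encodes an abundant peroxiredoxin that breaks down hydrogen peroxide with electrons from thioredoxin. Prdx1 (chr4:116685544-116700822) was at 406, 392, 906 and 1443 CPM in HFD libraries and at 733, 421, 643 and 419 CPM in CD libraries. Here HFD replicates 3 and 4 were the highest 2 libraries, the reverse of their place for Txnrd1 and Srxn1. The log2 fold change of Prdx1 was 0.51 ± 0.49 (SE, adjusted p = 0.678 in edgeR), and 0.064 without HFD replicate 4. Replicate numbers 1 and 2 alone gave -0.53, and 3 and 4 alone gave 1.23 (adjusted p = 0.0393 in edgeR).

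Thus 4 of the 10 genes passed within replicate numbers 3 and 4, Prdx1 higher and Slc7a11, Txnrd1 and Srxn1 lower. In that comparison 5624 of 20106 genes passed, 2314 higher and 3310 lower, with 2 libraries per diet, and CD replicates 3 and 4 are the pair that stood apart. Within replicate numbers 1 and 2 none of the 10 genes and 0 of all genes passed in edgeR, with 2160 genes at an unadjusted p under 0.05.

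**Figure D3:**
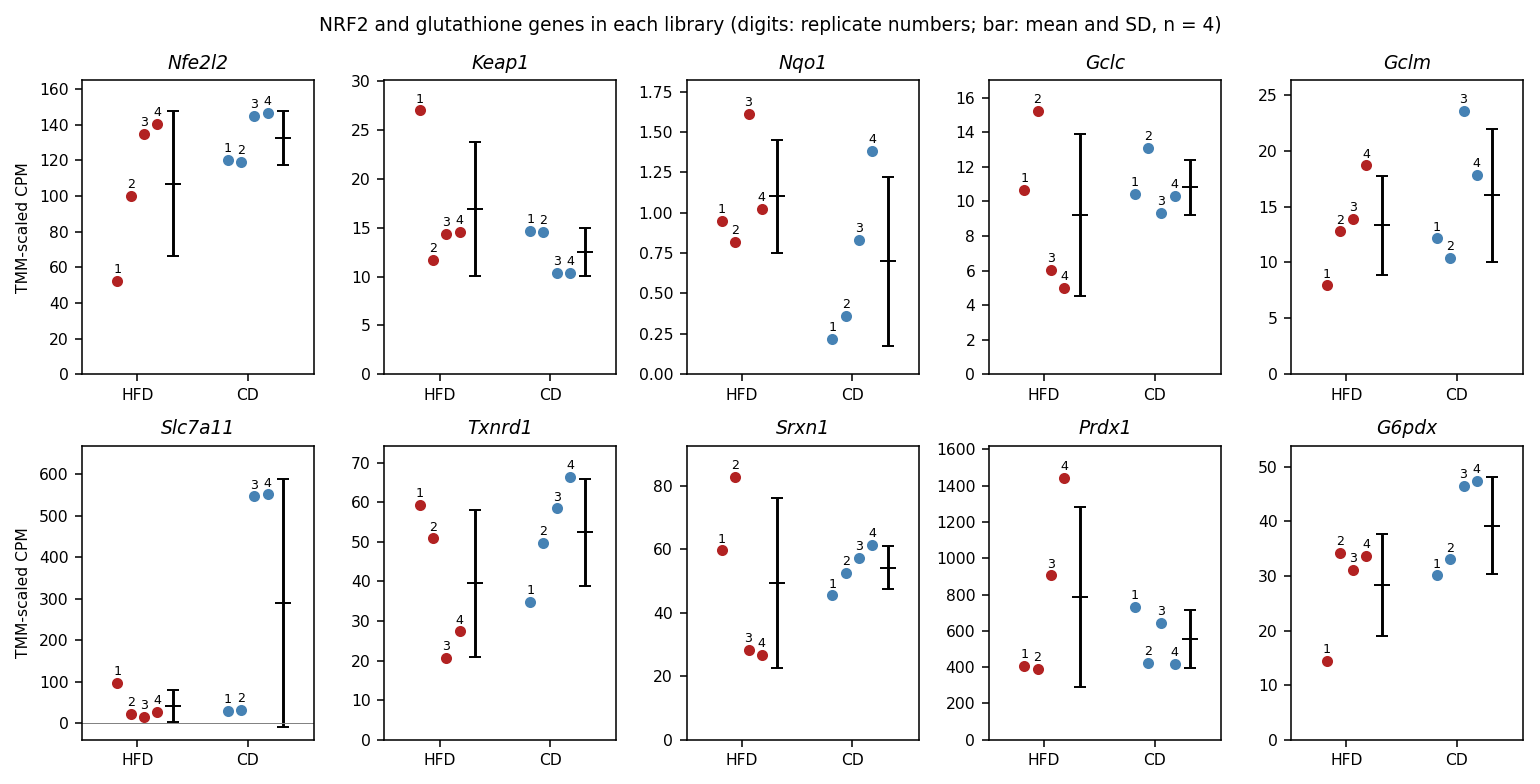
TMM-scaled CPM of the 10 genes in each library (HFD left, CD right, digits are replicate numbers), with mean and SD of 4 libraries beside the points. The groups overlap for every gene, CD replicates 3 and 4 set the CD mean of Slc7a11, and HFD replicates 3 and 4 are low for Gclc, Txnrd1 and Srxn1 and high for Prdx1.

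Nqo1 and G6pdx act on pyridine nucleotides. Nqo1 (chr8:107388225-107403206), a quinone reductase often used as a read-out of NRF2 activity, was at 0.949, 0.818, 1.61 and 1.02 CPM in HFD libraries and at 0.220, 0.361, 0.830 and 1.38 CPM in CD libraries. CD replicates 1 and 2 were lowest, at 12 and 21 counts, where the counting error of the lowest library alone is 28.9%. For Nqo1 the log2 fold change was 0.67 ± 0.62 (SE, adjusted p = 0.659 in edgeR), and 1.98 without HFD replicate 1 and CD replicates 3 and 4 (adjusted p = 0.585 in edgeR). By FPKM, Nqo1 was the scarcest of the 10 genes in every library.

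G6pdx encodes glucose-6-phosphate dehydrogenase, the entry enzyme of the pentose phosphate pathway and a main source of NADPH. G6pdx (chrX:74409483-74429194) was at 14.5, 34.2, 31.1 and 33.7 CPM in HFD libraries and at 30.1, 33.0, 46.5 and 47.4 CPM in CD libraries. HFD replicate 1 was lowest and CD replicates 3 and 4 highest. For G6pdx the log2 fold change was -0.47 ± 0.32 (SE, adjusted p = 0.538 in edgeR). It was -0.24 without HFD replicate 1, -0.16 without CD replicates 3 and 4, and 0.06 without all of these libraries. Its close relative G6pd2, which did not enter the test, had at most 0.457 CPM in any library, here scaled by library size alone.

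HFD replicate 1 shows how far the scale matters. It had the highest FPKM of the 8 libraries for 5 of the 10 genes, Srxn1, Txnrd1, Keap1, Gclc and Nqo1. By CPM it was highest for Keap1 alone. The share of all genes with their highest FPKM in this library is not given here. In limma on log2(FPKM + 1), 6 of the 10 fold changes were above 0. Their median was 0.07, below the median of 0.30 of all genes in that fit. Over the 23 alternative fits, 2 to 7 were above 0. The 2 came from the filter of at least 1 CPM in 4 libraries, which removed Nqo1 and left 9 genes. Where all 10 had a value, 3 to 7 were above 0.

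**Figure D4:**
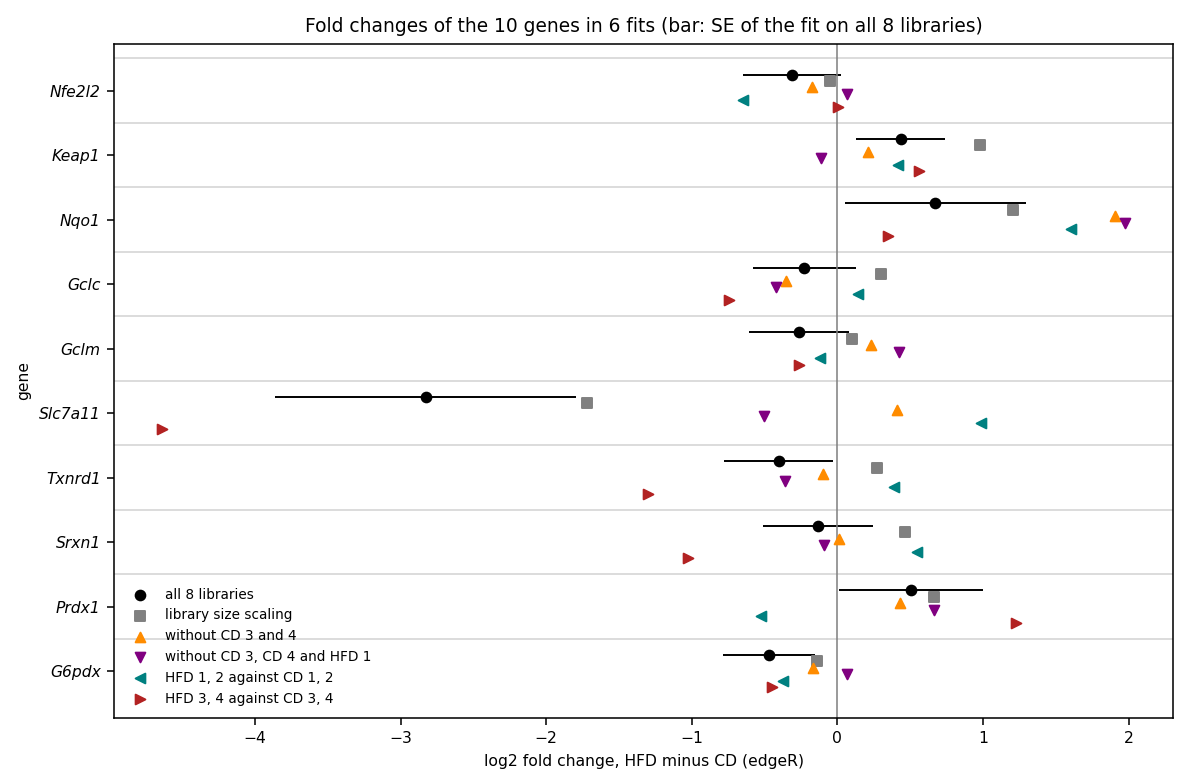
Log2 fold change (HFD minus CD) of the 10 genes in 6 fits, with the SE of the fit on all 8 libraries as a bar. Slc7a11 spreads the most, from -4.64 to 0.99, and Gclc, Gclm, Txnrd1 and Srxn1 lie on the other side of 0 when scaled by library size (squares).

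The other genes of these pathways were read from 9 lists that hold 124 genes beside the 10. Of these, 108 were tested and 0 passed in edgeR, with 12 higher and 9 lower at an unadjusted p under 0.05. That is 19.4%, against 12.9% of all genes tested. The fold change was above 0 in 59 and below 0 in 49, with a median of 0.125. Every HFD library lay above every CD library for 5 genes, Gpx3, Gstz1, Sesn1, Sod1 and Cat, or 4.63% of the 108 against 3.57% of all genes. Every HFD library lay below every CD library for 6, Prdx5, Pgd, Nadk, Osgin1, Trim16 and Abcc4, or 5.56% against 4.80%. Both shares were near those of all genes. Of these, Sesn1, Trim16 and Abcc4 are named because their values stood out. None of these genes passed in edgeR. DESeq2 called 5 of the 124 genes, against 1228 of all 42649 genes, and both totals include genes of low count. Gpx3 was higher and Ggct, Prdx5, Prdx6 and Osgin1 were lower.

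**Figure D5:**
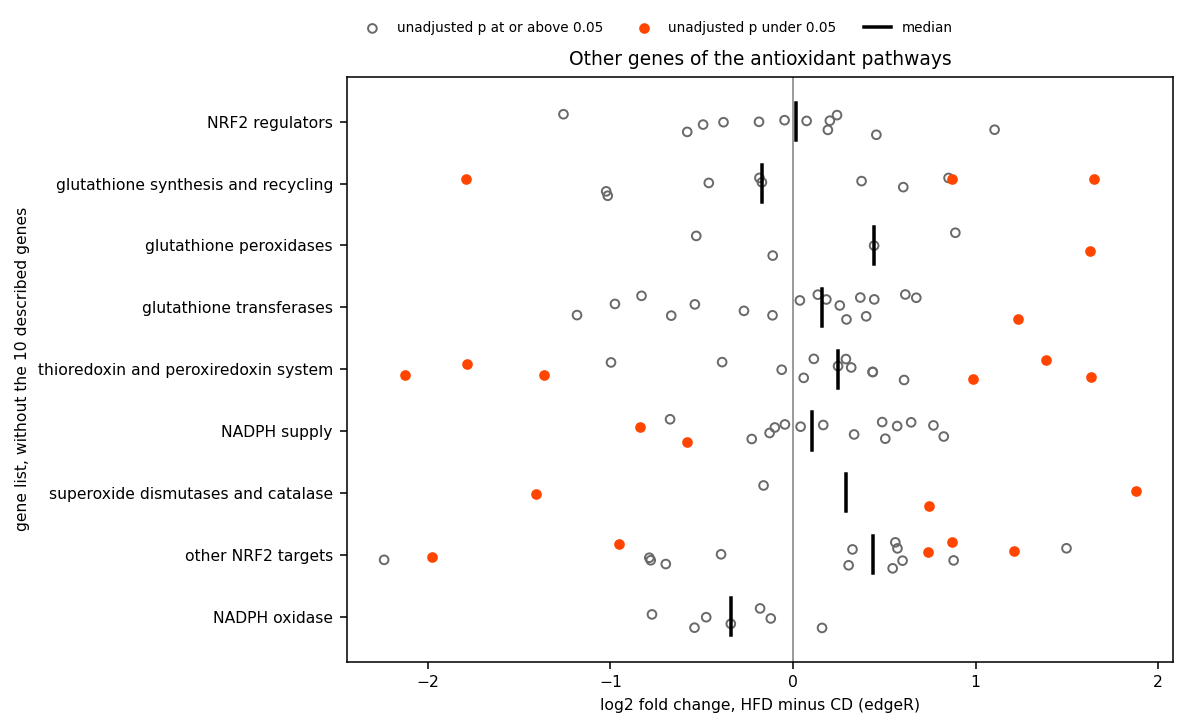
Log2 fold change (HFD minus CD, edgeR) of 108 tested genes of 9 antioxidant lists without the 10 described genes, filled where the unadjusted p was under 0.05, with the median of each list as a bar. The lists scatter on both sides of 0, and the NADPH oxidase list has 6 of 7 genes below 0 with none filled.

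Among 12 other NRF2 regulators 0 passed and 0 had an unadjusted p under 0.05, with a median of 0.01. Bach1, a repressor that competes with NRF2 at the same elements, was at 17.8 to 24.0 CPM in HFD libraries and at 13.6 to 20.8 CPM in CD libraries (log2 fold change 0.20 ± 0.23 SE, adjusted p = 0.728 in edgeR). Bach2, its relative, was at 1.17 ± 0.719 CPM in HFD libraries and 2.82 ± 1.52 CPM in CD libraries (SD, n = 4; adjusted p = 0.406 in edgeR). Gsk3b, a kinase that marks NRF2 for degradation, was at 94.3 CPM in HFD replicate 1, at 20.2 to 24.7 CPM in the other HFD libraries and at 11.6 to 27.2 CPM in CD libraries (log2 fold change 1.10 ± 0.52 SE, adjusted p = 0.407 in edgeR). Without HFD replicate 1 the fold change of Gsk3b was 0.25.

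Of 11 tested genes of glutathione synthesis and recycling, 2 were higher and 1 lower at an unadjusted p under 0.05. Ggct, which acts in glutathione breakdown, was at 3.36, 2.84, 3.35 and 4.66 CPM in HFD libraries and at 3.06, 6.53, 20.4 and 19.2 CPM in CD libraries. CD replicates 3 and 4 again were highest, and the log2 fold change of -1.79 ± 0.54 (SE, adjusted p = 0.264 in edgeR) was -0.44 without them. Slc25a39, a mitochondrial glutathione carrier, was at 129, 64.4, 54.8 and 86.2 CPM in HFD libraries and at 59.9, 55.2, 35.3 and 32.6 CPM in CD libraries (adjusted p = 0.340 in edgeR).

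Glutathione peroxidases reduce peroxides with glutathione. Gpx3, the secreted form, was at 53.4, 67.1, 117 and 136 CPM in HFD libraries and at 40.0, 34.7, 22.4 and 23.9 CPM in CD libraries. Every HFD library exceeded every CD library, and the log2 fold change of 1.63 ± 0.36 (SE, adjusted p = 0.231 in edgeR) was 1.31 without CD replicates 3 and 4. Gpx3 passed when genes of low count were kept (adjusted p = 0.0231 in edgeR) and in DESeq2 (adjusted p = 0.00330). Gpx8 was at 10.9 to 30.6 CPM in HFD libraries and at 2.73 to 20.3 CPM in CD libraries (adjusted p = 0.563 in edgeR). Gpx1, the abundant cytosolic form, was at 635, 3311, 4979 and 8393 CPM in HFD libraries and at 4494 to 4931 CPM in CD libraries. HFD replicate 1 was far below the rest, and the log2 fold change of Gpx1, -0.11 ± 0.68 (SE, adjusted p = 0.961 in edgeR), was 0.25 without it. Gpx4, which reduces lipid peroxides in membranes, was at 318, 700.1, 607 and 967 CPM in HFD libraries and at 588, 555, 385 and 376 CPM in CD libraries (adjusted p = 0.655 in edgeR).

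Of 18 tested glutathione transferases 1 was higher at an unadjusted p under 0.05. This was Gstz1, also known for its step in tyrosine breakdown, at 5.18 to 12.1 CPM in HFD libraries and 2.15 to 4.28 CPM in CD libraries (log2 fold change 1.23 ± 0.36 SE, adjusted p = 0.264 in edgeR). Gstp3 was scarce, at 0.498 ± 0.169 CPM in HFD libraries and 0.986 ± 0.320 CPM in CD libraries (SD, n = 4; adjusted p = 0.454 in edgeR).

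The thioredoxin and peroxiredoxin list had 3 genes higher and 3 lower at an unadjusted p under 0.05 of 17 tested. Prdx6, a peroxiredoxin that also has phospholipase activity, was at 139, 174, 147 and 187 CPM in HFD libraries and at 238, 173, 1357 and 1051 CPM in CD libraries. The log2 fold change of Prdx6 was -2.12 ± 0.64 (SE, adjusted p = 0.264 in edgeR), and -0.35 without CD replicates 3 and 4. Prdx5 was at 273, 778, 559 and 1108 CPM in HFD libraries and at 1432, 1304, 3322 and 3329 CPM in CD libraries. Here CD replicates 1 and 2 also exceeded every HFD library, and the log2 fold change of -1.79 ± 0.56 (SE, adjusted p = 0.274 in edgeR) was -1.02 without CD replicates 3 and 4. Prdx1 therefore followed neither of these relatives. Prdx2, Prdx3 and Prdx4 are named because they belong to the same family. Prdx4 and Prdx2 were above 0 like Prdx1, at 0.98 ± 0.42 (SE, adjusted p = 0.367 in edgeR) and 0.44 ± 0.28 (SE, adjusted p = 0.522 in edgeR). Prdx3 was at -0.06 ± 0.26 (SE, adjusted p = 0.942 in edgeR). Txn1, the thioredoxin that Txnrd1 recharges, was at 132 CPM in HFD replicate 1, at 566 to 785 CPM in the other HFD libraries and at 641 to 819.8 CPM in CD libraries (log2 fold change -0.39 ± 0.51 SE, adjusted p = 0.766 in edgeR). Its fold change was -0.05 without HFD replicate 1. Glrx, glutaredoxin, is named because its values stood out. It was at 35.2 to 64.7 CPM in HFD libraries and at 47.8, 40.1, 213 and 205 CPM in CD libraries (adjusted p = 0.354 in edgeR). Its fold change without CD replicates 3 and 4 is not given here.

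NADPH supply had 2 of 16 tested genes lower at an unadjusted p under 0.05 and 0 higher. Nadk, the cytosolic kinase that makes NADP, was at 16.2, 30.1, 22.7 and 29.5 CPM in HFD libraries and at 36.9, 35.3, 56.4 and 47.8 CPM in CD libraries (log2 fold change -0.84 ± 0.28 SE, adjusted p = 0.293 in edgeR). Pgd, which follows G6pdx in the pentose phosphate pathway, was at 47.7, 44.0, 61.9 and 55.7 CPM in HFD libraries and at 63.5, 67.1, 86.4 and 96.5 CPM in CD libraries (log2 fold change -0.58 ± 0.25 SE, adjusted p = 0.375 in edgeR). For both genes every HFD library lay below every CD library, while for G6pdx the groups overlapped.

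All 4 superoxide dismutase and catalase genes were tested. Cat, catalase, was even in HFD libraries at 13.1 to 15.3 CPM and at 5.78 to 11.7 CPM in CD libraries (log2 fold change 0.74 ± 0.26 SE, adjusted p = 0.306 in edgeR). Sod1, the cytosolic superoxide dismutase, was at 1236 CPM in HFD replicate 1, at 204 to 262 CPM in the other HFD libraries and at 163, 202, 77.5 and 78.8 CPM in CD libraries. Its log2 fold change was 1.88 ± 0.66 (SE, adjusted p = 0.306 in edgeR), and 0.31 without HFD replicate 1 and CD replicates 3 and 4. Sod2, the mitochondrial form, was at 209, 321, 95.6 and 159 CPM in HFD libraries and at 263, 238, 797 and 783 CPM in CD libraries (log2 fold change -1.41 ± 0.54 SE, adjusted p = 0.323 in edgeR), and -0.36 without CD replicates 3 and 4.

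Of 18 tested other NRF2 targets, 3 were higher and 2 lower at an unadjusted p under 0.05. Osgin1, an oxidative stress induced gene, was at 3.00, 5.00, 5.96 and 6.26 CPM in HFD libraries and at 10.4, 8.21, 30.6 and 30.5 CPM in CD libraries. The log2 fold change of Osgin1 was -1.98 ± 0.47 (SE, adjusted p = 0.244 in edgeR) and -0.89 without CD replicates 3 and 4, and it passed in DESeq2 (adjusted p = 0.00663). Cd36, a scavenger receptor that takes up oxidised lipoproteins and fatty acids, was at 11.4, 22.2, 26.0 and 26.0 CPM in HFD libraries and at 13.8, 12.5, 9.29 and 11.2 CPM in CD libraries (log2 fold change 0.87 ± 0.30 SE, adjusted p = 0.302 in edgeR). Hmox1, haem oxygenase 1, was at 57.9, 84.8, 257 and 229 CPM in HFD libraries and at 217, 156, 322 and 326 CPM in CD libraries (log2 fold change -0.70 ± 0.50 SE, adjusted p = 0.564 in edgeR).

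The NADPH oxidase list, the phagocyte source of superoxide, had 6 of 7 tested genes below 0, with a median of -0.34, or -0.03 scaled by library size, and 0 at an unadjusted p under 0.05. Cybb, its catalytic subunit, was at 166 to 243 CPM in HFD libraries and at 192 to 203 CPM in CD libraries (adjusted p = 0.827 in edgeR). Ncf4, a cytosolic subunit, was at 144 ± 35.0 CPM in HFD libraries and 209.5 ± 38.3 CPM in CD libraries (SD, n = 4; adjusted p = 0.459 in edgeR).

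Markers of other cells that could bring these transcripts also differed between libraries. The sum of 10 hepatocyte markers was 28.0 to 56.4 CPM in HFD libraries and 78.6 to 122 CPM in CD libraries, with 7 of the 10 lower at an unadjusted p under 0.05. The sum of 10 epithelial and carcinoma markers was 5.07 to 8.73 CPM in HFD libraries and 6.46 to 17.5 CPM in CD libraries, and Epcam, Krt19, Krt20 and Cldn7 had no counts in at least 1 library. The sum of 8 T and NK cell markers was 2.91 to 6.74 CPM in HFD libraries and 8.44 to 12.5 CPM in CD libraries, with 3 lower at an unadjusted p under 0.05, and Cd3e, Ncr1 and Klrb1c had no counts in at least 1 library. The sum of 5 Kupffer cell markers was 226 to 506 CPM in HFD libraries and 90.2 to 186 CPM in CD libraries, with 4 of the 5 higher at an unadjusted p under 0.05. In this sum every HFD library exceeded every CD library, while in the hepatocyte and the T and NK cell sums every HFD library lay below every CD library. The sum of 10 macrophage markers was 10125 to 95593 CPM in HFD libraries and 25661 to 47091 CPM in CD libraries, lowest in HFD replicate 1, with 4 of the 10 higher at an unadjusted p under 0.05. Their part in the values of the 10 genes and of the other genes named was not tested.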

How the data were processed

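The authors deposited 1 table with raw counts per gene and FPKM per gene for 8 libraries, which the file headers name; counts were not normalised and FPKM were scaled by transcript length and library depth by the authors. Libraries were made from polyA RNA with SMARTer oligo(dT)-primed cDNA, PCR and fragmentation, per the labels' protocols, with no molecular identifiers or strand marking described, so counting errors cover reads of amplified cDNA only. StringTie 1.3.4d, HISAT2 2.0.4 and cutadapt 1.9 were used, per the submitters' processing notes; the genome build is not given in the sources used here. Of the 42649 gene IDs, 42502 were found in the GRCm38 annotation and 39410 had the same start and end, among them 9 of the 10 genes described (Srxn1 differs), so positions are given on that build.

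Counts were tested with edgeR 4.0.16 in R 4.3.3 (filterByExpr, TMM, two-sided quasi-likelihood F test of diet with no covariate, Benjamini-Hochberg over 17367 genes). The test was first run on simulated counts. These held no libraries that stood apart, so that run does not show how many changes the test would miss here. CPM are TMM-scaled, except for G6pd2, and SE is the fold change divided by the root of F. Alternatives used DESeq2 1.42.0 and limma 3.58.1. The 10 genes and all lists were chosen with earlier results of these data known. Besides the 10, the text names the 2 genes of smallest p of each list, a panel (Hmox1, Gsr, Gss, Slc3a2, Txn1, Bach1, Gpx1, Gpx4, Sod2, Cat, Cybb) and the 5 genes closest to Slc7a11; 1 gene of this rule is not reported here.

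Replicate numbers are in the sample titles, and what they stand for is not given in the sources used here. Libraries with the same number correlated at 0.11 to 0.29 in their deviations from the group mean, and those with another number on the same side of the division into 1 and 2 or 3 and 4 at 0.16 to 0.32, so the numbers may mark that division rather than single pairs. The series' design text gives 4 mice per diet, so p-values measure the spread between the libraries of these mice. Pairs of libraries were compared by a median chi-square over genes, 0.455 under counting noise alone. It was 4.65 for CD replicates 1 and 2, 3.77 for CD replicates 3 and 4, and 25.1 to 32.0 for the other CD pairs. HFD pairs ran from 11.1 to 119.5. The test, also within replicate numbers 3 and 4, treats the libraries as independent. Whether libraries of a close pair share a step was not tested.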

Additional observations from a re-analysis of the deposited data

Results flagged for a closer look

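In a screen of 74 sets of 4 libraries (each named gene in each diet), 5 held a library whose distance from its neighbour was large for the range of its set by Dixon's ratio; chance gives about 1 in 20 sets. Slc7a11 in HFD replicate 1 was at 98.0 CPM, against 15.0 to 26.7 CPM in the other HFD libraries. G6pdx in HFD replicate 1 was at 14.5 CPM, against 31.1 to 34.2 CPM. Gsk3b in HFD replicate 1 was at 94.3 CPM, against 20.2 to 24.7 CPM. Sod1 in HFD replicate 1 was at 1236 CPM, against 204 to 262 CPM. Cybb in HFD replicate 2 was at 166 CPM, against 232 to 243 CPM. Of these 5, 4 concern HFD replicate 1, the library with the TMM factor of 2.02.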

How the results depend on the processing

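The count of the 10 genes that passed was 0 with all 8 libraries and in most alternatives. It was 1 (Slc7a11, lower) with no filter on low counts and in DESeq2, and 4 within replicate numbers 3 and 4. It was 0 with each library left out in turn. Over all genes the count was 1 as reported and 0 to 1 with each library left out in turn. It was 0 with library size only, with limma on log2(FPKM + 1) with or without a filter, without CD replicates 3 and 4, without these and HFD replicate 1, and within replicate numbers 1 and 2. It was 3 with limma voom and quality weights, 415 of 42649 with no filter and 1228 of 42649 in DESeq2 (153 higher, 1075 lower). With a covariate that splits replicate numbers 1 and 2 from 3 and 4 it was 356 of 17367. Within 3 and 4 it was 5624 of 20106. With the replicate block, which pairs libraries by number, it was 0, so the call of Ass1 was lost, and the block changed no other call. Of the other pathway genes 3 of 124 passed with no filter, 5 of 124 in DESeq2, 3 of 108 with that covariate and 42 of 109 within 3 and 4. The fits that leave out CD replicates 3 and 4 or split the replicate numbers were added after the data had been seen.

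Fold changes on the other side of 0 were as follows; none of them passed in edgeR or limma. With library size only they were 0.30 for Gclc, 0.10 for Gclm, 0.27 for Txnrd1, 0.47 for Srxn1, 0.34 for Gss and 0.20 for Slc3a2. With limma on log2(FPKM + 1), filtered or not, they were 0.070 for Gclc, 0.061 for Gclm, 0.083 for Srxn1, 0.12 for Gss and 0.17 for Slc3a2. With a pseudocount of 0.1 they were 0.0093, 0.092, 0.062, 0.14 and 0.17 for the same genes. With voom quality weights they were 0.14 for Gclm and 0.062 for Gpx1. Without CD replicates 3 and 4 they were 0.23 for Gclm, 0.41 for Slc7a11, 0.010 for Srxn1 and 0.34 for Gsr. Without these and HFD replicate 1 they were 0.066 for Nfe2l2, -0.11 for Keap1, 0.42 for Gclm, 0.064 for G6pdx, -0.15 for Gpx8, 0.032 for Hmox1, 0.11 for Gsr, 0.066 for Slc3a2, 0.049 for Txn1 and 0.22 for Gpx1. Within replicate numbers 1 and 2 they were 0.14 for Gclc, 0.99 for Slc7a11, 0.39 for Txnrd1, 0.54 for Srxn1 and -0.53 for Prdx1, and within 3 and 4 it was 0.0022 for Nfe2l2. With each library left out in turn Gclc ran from -0.55 to 0.0080, Srxn1 from -0.47 to 0.11 and Gpx1 from -0.63 to 0.25. The cause was not tested. Nqo1 was above 0 in each fit that gave it a value; the filter of at least 1 CPM in 4 libraries removed it. Depth limits Nqo1, at 12 to 90 counts, more than the other 9 genes.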
